A study of Mus musculus with 16 samples.

Results

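The genes described here are 9 markers of neural progenitors and neurons, Nes, Sox1, Pax6, Hes5, Msi1, Zeb2, Cdh2, Ncam1 and Tubb3, chosen by name and found in the count table by their Ensembl identifiers, 9 of the 46983 genes listed. They were measured by RNA-seq in 16 libraries of 46C cells, a mouse embryonic stem cell (ESC) line of strain 129Ola that carries GFP at the Sox1 locus and was grown with leukaemia inhibitory factor, which holds ESCs undifferentiated. Cells were harvested 48 hr after transfection with siRNA against RAM, the small protein that activates the mRNA cap methyltransferase RNMT and is encoded by Ramac, or with a non-targeting control siRNA, each at 70 pM by the labels. Cycloheximide was added before lysis to hold ribosomes on mRNA, and 10% of each cytoplasmic extract was kept as input while fractions 17 to 22 of a sucrose gradient of the rest were pooled as polysomes. The 4 groups, control input, RAM siRNA input, control polysome and RAM siRNA polysome, have 4 libraries each. All cells are of 1 line, so the measurements do not extend over other ESC lines, and the siRNA lowers RAM for a short time and does not remove the gene. By the paper's legends these transfections used 1 RAM siRNA, so effects of its sequence cannot be told apart from those of lower RAM.

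Neural progenitors form when ESCs leave pluripotency and take the neural fate by default. They switch on the transcription factors Sox1 and Pax6, fill with the intermediate filament Nestin, exchange E-cadherin for N-cadherin, and are kept dividing by Notch signalling, whose effector Hes5 represses the proneural genes. Neurons that leave this state raise the neural tubulin Tubb3 and the adhesion molecule Ncam1, and many neuronal genes are held low in other cells by the repressor REST.

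The 9 genes lie at separate loci of GRCm38, and each is protein coding. Nes (ENSMUSG00000004891) is at chr3:87971078-87980451, Sox1 (ENSMUSG00000096014) at chr8:12395295-12400126, Pax6 (ENSMUSG00000027168) at chr2:105668900-105697364, Hes5 (ENSMUSG00000048001) at chr4:154960923-154962371 and Msi1 (ENSMUSG00000054256) at chr5:115429599-115455698. Tubb3 (ENSMUSG00000062380) is at chr8:123411424-123422015, all of these on the plus strand. Zeb2 (ENSMUSG00000026872) is at chr2:44983632-45117395 and Ncam1 (ENSMUSG00000039542) at chr9:49502136-49798925, on the minus strand, as is Cdh2. Annotated genes that overlap them held few counts, at most 12 in any library for Sox1ot and at most 2 for any of the others, among them Pax6os1 and Zeb2os.

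RefSeq promoters were at hand for 6 of the 9 genes, and the 250 bases before the start site are shown for the member that was barely detected (Hes5), a member that was higher in input after RAM siRNA (Nes) and the member that was lower in both fractions (Pax6). They are read 5′ to 3′ from GRCm38.p6 on the plus strand, and the capitals mark TGGGAA, the core bound by RBPJ, the DNA-binding partner of Notch, and CACCTG, the box bound by Zeb factors, each searched on both strands.
Hes5 (chr4:154960673-154960922): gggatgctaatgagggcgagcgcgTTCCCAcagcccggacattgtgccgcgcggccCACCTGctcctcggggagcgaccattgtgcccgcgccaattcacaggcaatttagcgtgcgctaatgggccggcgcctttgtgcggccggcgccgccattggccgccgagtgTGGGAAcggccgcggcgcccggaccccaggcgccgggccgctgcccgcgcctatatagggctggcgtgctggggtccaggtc
Nes (chr3:87970843-87971092): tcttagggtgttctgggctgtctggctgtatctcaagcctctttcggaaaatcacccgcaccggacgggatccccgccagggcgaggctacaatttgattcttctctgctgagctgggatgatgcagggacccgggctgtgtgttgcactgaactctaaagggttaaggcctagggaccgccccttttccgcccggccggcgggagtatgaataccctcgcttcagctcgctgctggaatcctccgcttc
Pax6 (chr2:105668646-105668895): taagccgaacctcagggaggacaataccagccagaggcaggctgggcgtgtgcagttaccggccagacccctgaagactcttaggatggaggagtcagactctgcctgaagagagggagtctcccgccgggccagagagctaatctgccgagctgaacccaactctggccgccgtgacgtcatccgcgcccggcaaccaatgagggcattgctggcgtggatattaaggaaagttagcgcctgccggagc
The Hes5 window held 2 matches to the RBPJ core, on opposite strands, and 1 to the Zeb box, none of them overlapping, and the windows of Nes and Pax6 held neither. Pax6 has another annotated start further downstream, whose window is not shown and also held neither. Of 32851 mouse promoter windows of the same length, 21.6% held the RBPJ core and 17.2% the Zeb box. The Hes5 window was 71.6% G or C with 32 CpG dinucleotides, against 15 CpG in each of the other windows shown and a median of 6 over all windows. A match describes the letters only, and nothing in these libraries measured binding.

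The libraries held 16647523 to 20147833 counts. Ramac had 197 to 206 counts per library in control input and 46 to 58 after RAM siRNA, and 122 to 256 and 5 to 45 in polysomes, so the groups did not overlap in either fraction. The cells expressed the ESC programme: all 14 genes of a pluripotency list passed the filter on low counts (1 CPM, a count scaled to library size, or more in 10 or more of the 16 libraries), with a summed level of 5451 to 5882 CPM per control input library. The 9 neural genes together reached 149 to 158 CPM in the same libraries. In bulk RNA, fewer cells of a type and less RNA per cell cannot be told apart, and CPM values are shares of a library, so a change in the total RNA of a fraction does not show in them.

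Per kb of exon Tubb3 was the most abundant of the 9 genes, and Hes5 was at the limit of detection. To compare genes, levels were divided by the length of all annotated exons of a gene together, from 1868 bases for Tubb3 to 19942 for Zeb2. The order depends on this length. In CPM of control input Ncam1 (58.2) was above Tubb3 (32.7), and Zeb2 (4.90) above Cdh2 (2.77). In control input Tubb3 stood at 17.5 ± 4.30 CPM per kb (SD, n = 4), Ncam1 at 6.72 ± 1.17 and Nes at 4.31 ± 0.735. These levels did not overlap between neighbours in the order. Sox1 (1.29 ± 0.298 CPM per kb), Msi1 (1.19 ± 0.321) and Pax6 (1.06 ± 0.130) followed, with overlapping ranges, so their order is not resolved. Cdh2 (0.344 ± 0.0380 CPM per kb) and Zeb2 (0.246 ± 0.0439) were lower still and did not overlap each other. On polysomes Nes and Msi1 ranked lower than in input. Tubb3 (34.8 ± 6.45 CPM per kb) and Ncam1 (3.99 ± 1.34) still led, Sox1 (1.63 ± 0.193) and Pax6 (1.20 ± 0.113) came next, and Nes stood at 0.598 ± 0.369, with a range that overlapped that of Cdh2 (0.482 ± 0.127), which in turn overlapped that of Msi1 (0.450 ± 0.181). Zeb2 was last of the 8 genes that could be tested, at 0.108 ± 0.0374 CPM per kb, and its range overlapped that of Hes5.

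**Figure D1:**
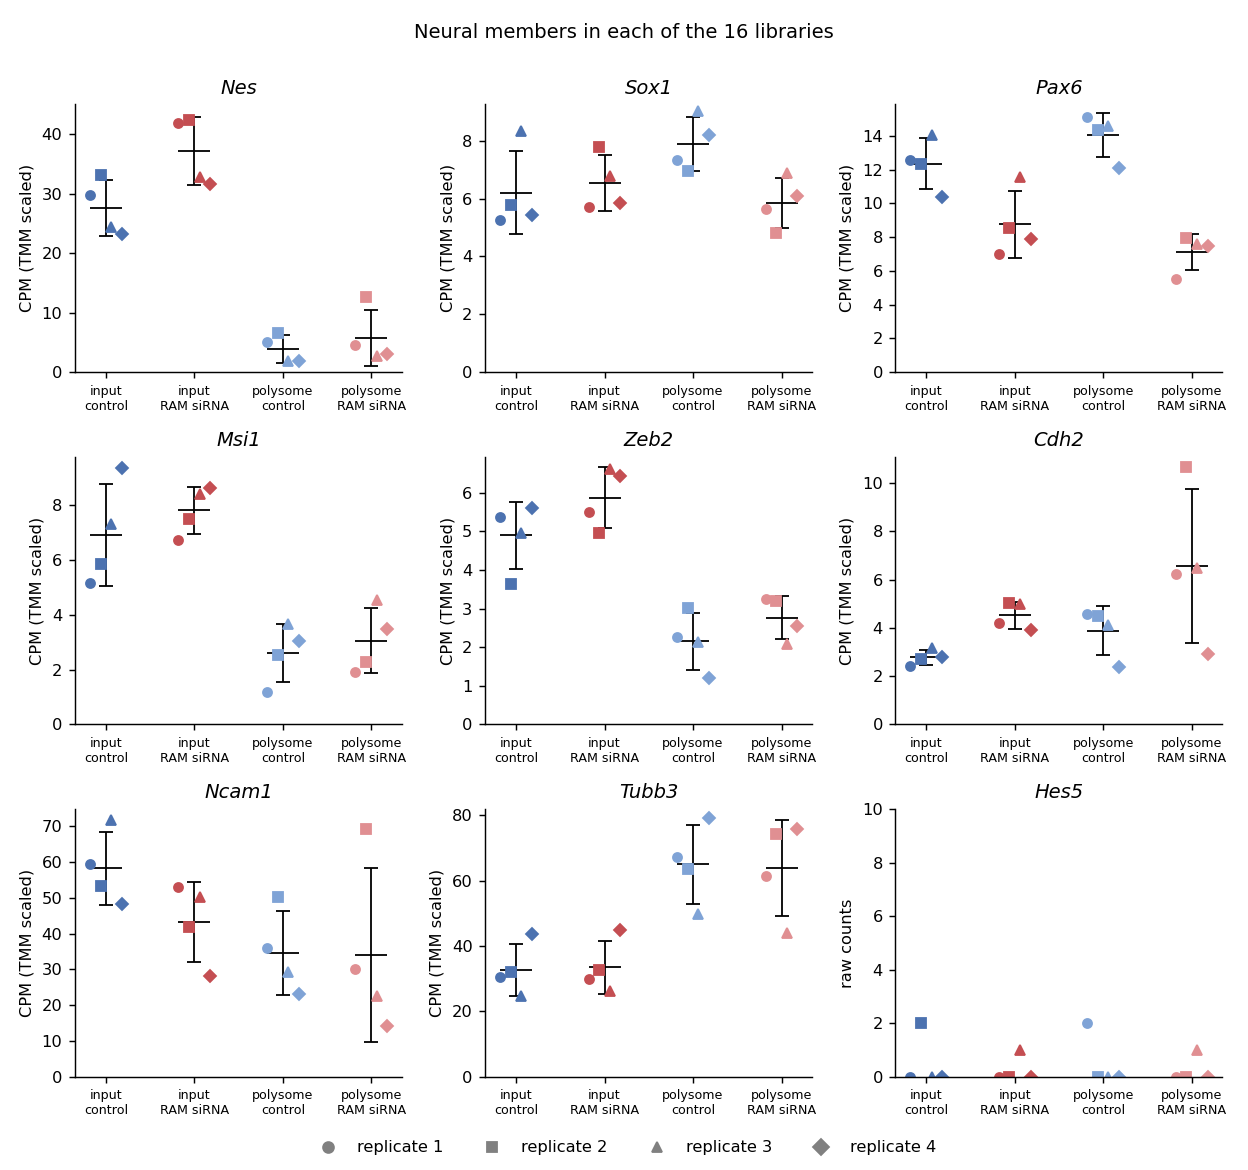
Level of each neural gene in the 16 libraries, as CPM with TMM scaling (Hes5 as raw counts), by group on the x axis. Symbols are replicates 1 to 4, and black bars the mean and SD of 4 libraries. Cdh2 input levels do not overlap between siRNAs, where 9.39% of all genes were higher without overlap. Pax6 and, narrowly, Sox1 polysome levels do not overlap either, where 4.38% of all genes were lower without overlap.

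Hes5, the Notch effector of neural progenitors, had at most 2 counts in any library. It had 2 counts in replicate 2 of control input and 2 in replicate 1 of control polysomes, 1 count in replicate 3 of RAM siRNA input and 1 in replicate 3 of RAM siRNA polysomes, and 0 in the other 12 libraries, or 6 counts in 291509310. A count of 0 allows up to 3 counts, or 0.149 to 0.180 CPM in these libraries, and this floor covers counting error only. Hes5 did not pass the filter, and the exact permutation test of 4 against 4 libraries gave p = 1 (two-sided) in input, in polysomes and between fractions. The smallest possible p of this test, 0.0286, holds only without ties. With 1 library above 0 in each group and the others tied at 0, the test could not reach 0.05 whatever the arrangement. A difference was not detectable at this depth.

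After RAM siRNA members were called in both directions in input, a comparison that addresses whether neural genes change in ESCs when the cap methyltransferase activator is lowered. N-cadherin transcripts were called higher with or without the replicate number as a block. In the fit with that block Nestin transcripts were also called higher, and Pax6 and Ncam1 transcripts lower. The changes of Sox1 and Tubb3 were smaller than the replicate spread. Of the 8 members that could be tested, 1 rose and 0 fell past an adjusted p threshold of 0.05 (quasi-likelihood test of edgeR, Benjamini-Hochberg adjustment over 12805 genes), where 6.95% of all genes tested rose and 5.94% fell. Libraries with the same replicate number deviated together from their group means. With the replicate number as a block 2 members rose and 2 fell, which for 8 members is near the 20.3% and 19% of all genes. The members' median log2 fold change was 0.12, and that of all genes 0.00.

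**Figure D2:**
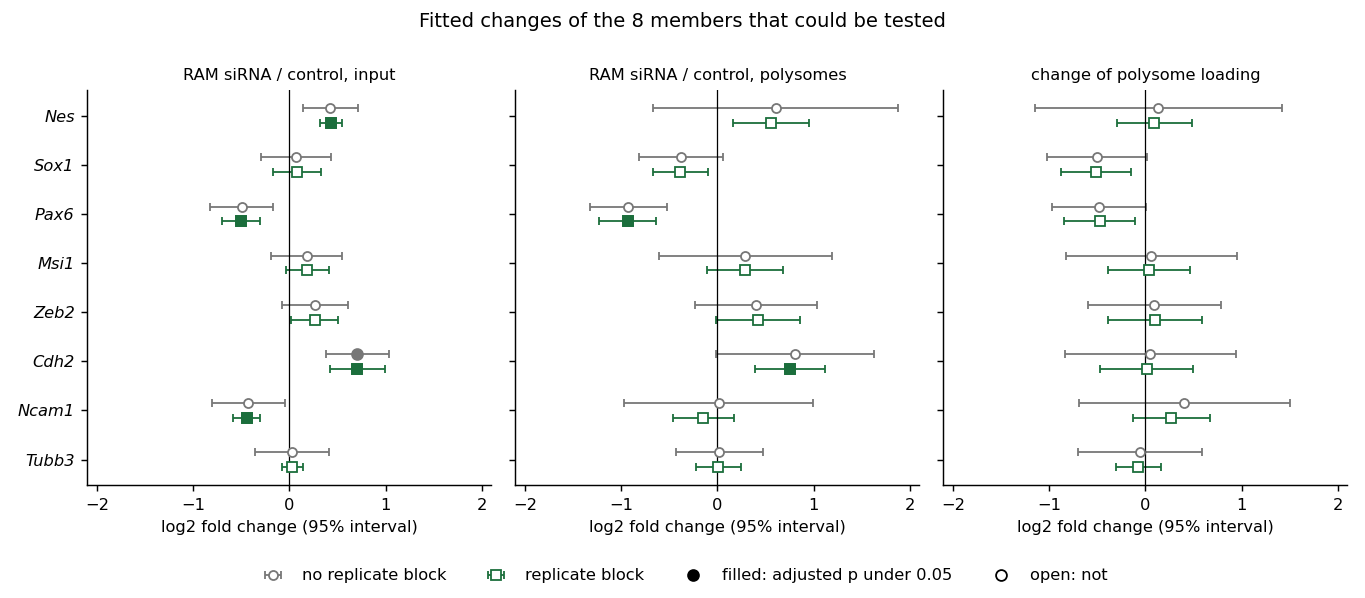
Fitted log2 fold changes of the 8 genes that could be tested, with 95% intervals, in input, in polysomes and for polysome loading (polysome change less input change). Circles are the fit without and squares the fit with the replicate block, and filled symbols have an adjusted p under 0.05: Cdh2 in input in both fits, and Nes, Pax6 and Ncam1 in input and Pax6 and Cdh2 in polysomes with the block.

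Among the progenitor genes, Nes encodes Nestin, the intermediate filament that names neural stem cells in most assays. In input it had 565, 665, 446 and 413 counts in control replicates 1 to 4 and 769, 735, 613 and 562 after RAM siRNA. Each RAM siRNA library was higher than the control of its own number, by 1.28 to 1.41 times, as 25.9% of all genes were in all 4 pairs, but the groups overlapped because replicates 1 and 2 were higher than 3 and 4 under both siRNAs. The level went from 27.6 ± 4.71 to 37.2 ± 5.75 CPM (SD, n = 4), a log2 fold change of 0.42 (SE 0.13) that did not pass (adjusted p = 0.0531, edgeR). With the block the change was 0.43 (SE 0.06, adjusted p = 3.7e-06, edgeR), and it passed in each block fit that left out 1 library, at 0.41 to 0.46. Without the block it also passed when replicate 2 of control input (0.53, adjusted p = 0.0350, edgeR) or replicate 4 of RAM siRNA input (0.50, adjusted p = 0.0189, edgeR) was left out.

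Sox1, the earliest transcription factor of the neural plate and the gene of the GFP reporter in this line, did not pass the test in input. Its counts were 100, 116, 153 and 97 in control and 105, 135, 127 and 104 in RAM siRNA libraries, and the RAM siRNA range lay within the control range. The log2 fold change was 0.07 (95% interval -0.29 to 0.44, adjusted p = 0.822, edgeR), so changes beyond about 1.35-fold upward or to under 0.817 times control lay outside the interval.

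Pax6, the homeodomain factor that follows Sox1 in forebrain and eye progenitors, was lower. Input counts were 239, 247, 258 and 185 in control and 129, 148, 216 and 140 after RAM siRNA. Replicate 3 of RAM siRNA input was above replicate 4 of control, which made the groups overlap, and each RAM siRNA library was below the control of its number, as 24.6% of all genes were in all 4 pairs. Pax6 went from 12.3 ± 1.52 to 8.75 ± 1.97 CPM (SD, n = 4), 0.708 times control, with a log2 fold change of -0.50 (SE 0.15, adjusted p = 0.0506, edgeR) and, with the block, of -0.51 (SE 0.10, adjusted p = 0.000287, edgeR). The block fits that left out 1 library gave -0.59 to -0.40, and each passed. Without the block it passed when replicate 4 of control input (-0.57, adjusted p = 0.0410, edgeR) or replicate 3 of RAM siRNA input (-0.67, adjusted p = 0.00961, edgeR) was left out.

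Msi1 encodes Musashi, an RNA-binding protein that keeps neural stem cells from differentiating by repressing translation of its targets. It had 98, 117, 134 and 167 counts in control input and 124, 130, 157 and 153 after RAM siRNA, with overlapping groups. Its log2 fold change of 0.18 (SE 0.17, 95% interval -0.19 to 0.55) did not pass (adjusted p = 0.547, edgeR), nor did it with the block (adjusted p = 0.177, edgeR). With the block it passed when replicate 4 of control input (0.31, adjusted p = 0.0429, edgeR) or of RAM siRNA input (0.31, adjusted p = 0.0425, edgeR) was left out.

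Zeb2 and Cdh2 belong to the switch in cadherins. Zeb2, a repressor of E-cadherin that also acts during neural induction, had 102, 73, 91 and 100 counts in control input and 101, 86, 124 and 114 in RAM siRNA input. The ranges overlapped, although the CPM of each RAM siRNA library was above that of its control, and the change of 0.27 (SE 0.16) did not pass without the block (adjusted p = 0.302, edgeR) or with it (adjusted p = 0.0805, edgeR).

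Cdh2 (ENSMUSG00000024304, chr18:16588877-16809246), which encodes N-cadherin, showed the largest change of the members in input and passed the test in both fits. Its counts were low, 46, 54, 58 and 50 in control and 77, 87, 93 and 69 in RAM siRNA libraries, and did not overlap, and 9.39% of all genes tested were higher after RAM siRNA without overlap. The level rose from 2.77 ± 0.307 to 4.52 ± 0.568 CPM (SD, n = 4), 1.63-fold (95% interval 1.30 to 2.04), with a log2 fold change of 0.70 (SE 0.15, adjusted p = 0.0103, edgeR). Leaving out any 1 library gave 0.64 to 0.77 and kept the call. Replicates 1 and 2 alone gave 0.84 (adjusted p = 0.0150, edgeR), and replicates 3 and 4 alone gave 0.57, which did not pass (adjusted p = 0.639, edgeR).

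Ncam1 and Tubb3 are the 2 neuronal members. Ncam1, the neural cell adhesion molecule, had 1130, 1065, 1314 and 861 counts in control input and 972, 726, 937 and 499 after RAM siRNA. Every RAM siRNA library was below the control of its number, and replicate 4 was the lowest under both siRNAs. Ncam1 went from 58.2 ± 10.1 to 43.3 ± 11.1 CPM (SD, n = 4), a log2 fold change of -0.43 (SE 0.17) that did not pass (adjusted p = 0.130, edgeR), while with the block it was -0.44 (SE 0.07, adjusted p = 2.75e-05, edgeR), and it passed in every block fit that left out 1 library, at -0.54 to -0.35.

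Tubb3, the tubulin isotype used to stain young neurons, was close to level in input. The counts were 580, 639, 450 and 780 in control and 551, 567, 491 and 795 in RAM siRNA libraries, and the 4 replicate numbers kept nearly the same level under both siRNAs, with ratios within pairs that crossed 1. The log2 fold change was 0.03 (95% interval -0.35 to 0.41 without the block and -0.08 to 0.14 with it), and did not pass (adjusted p = 0.934 and 0.678, edgeR). The block interval held changes of 0.945 to 1.11 times control.

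**Figure D3:**
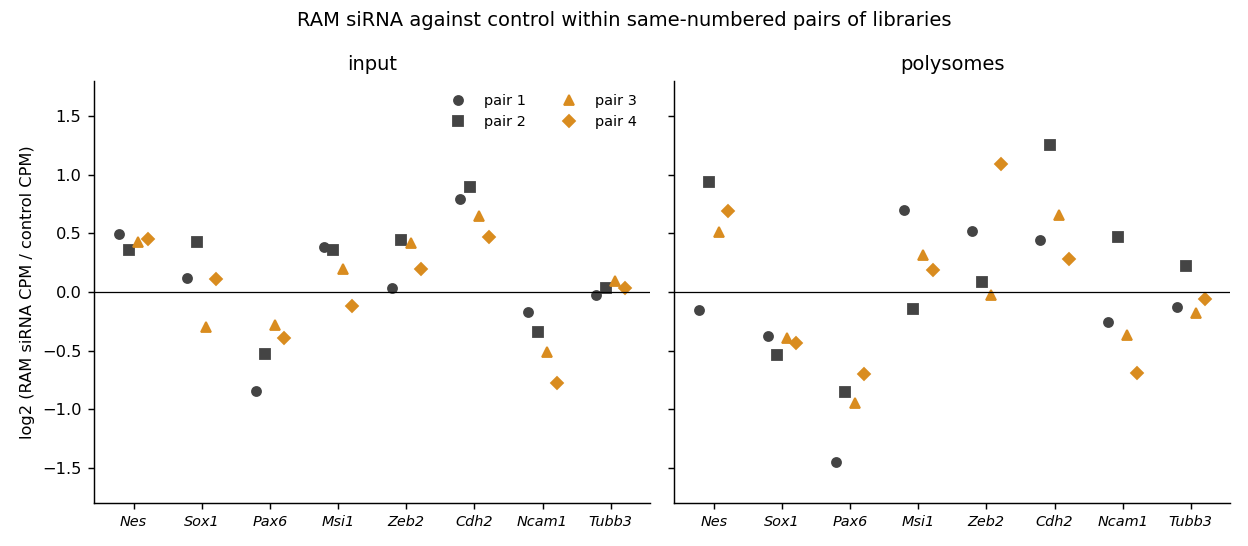
Log2 ratio of RAM siRNA to control CPM within each same-numbered pair of libraries, in input and in polysomes, with 1 symbol per pair (dark for pairs 1 and 2, orange for 3 and 4). All 4 input pairs lie above 0 for Nes, Zeb2 and Cdh2 and below 0 for Pax6 and Ncam1, and polysome pair 2 is the highest for Nes, Cdh2, Ncam1 and Tubb3.

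On polysomes, in the fit with the block, Pax6 was lower and Cdh2 higher after RAM siRNA, the same genes that had the largest input changes in each direction. The other 6 members tested were not called in either fit. Without the block 0 of the 8 members passed, and 3 of all genes did, 0.0234% (edgeR), with Pax6 alone among the members at an unadjusted p under 0.05, as 9% of all genes were. DESeq2 called 1 member, Pax6, and 300 genes. With the block 1 member rose and 1 fell, where 9.68% of all genes rose and 4.97% fell. The input and polysome libraries of a replicate come from the same extract, so both comparisons share their cells. RAM siRNA replicate 2 was the highest library of its group for Nes, Cdh2 and Ncam1, and leaving it out changed the number of genes called from 3 to 48 without the block. In the block fit, where leaving out a library also removes the comparison within its pair, the 1875 genes became 4566 without it and 4880 without control replicate 2.

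Pax6 polysome counts were 280, 272, 260 and 214 in control and 92, 139, 152 and 126 after RAM siRNA. Every control library was above every RAM siRNA library, as in 4.38% of all genes. The level went from 14.0 ± 1.32 to 7.12 ± 1.08 CPM (SD, n = 4), 0.526 times control (95% interval 0.399 to 0.694). The log2 fold change was -0.93 (SE 0.18, adjusted p = 0.0936, edgeR) and with the block -0.93 (SE 0.14, adjusted p = 0.000476, edgeR), and the block fits without 1 library gave -1.05 to -0.79, each past the threshold.

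Sox1 polysome counts were 136, 132, 161 and 145 in control and 94, 84, 138 and 103 after RAM siRNA, and these raw counts overlapped. After TMM scaling the CPM ranges narrowly did not (6.97 to 9.05 against 4.80 to 6.88), as in 4.38% of all genes. RAM siRNA was lower in all 4 pairs, as for 20.2% of all genes. The log2 fold change was -0.38 (SE 0.20), and it did not pass without the block (adjusted p = 0.648, edgeR) or with it (adjusted p = 0.0686, edgeR). With the block it passed when replicate 2 of control polysomes (-0.37, adjusted p = 0.0239, edgeR) or of RAM siRNA polysomes (-0.34, adjusted p = 0.0448, edgeR) was left out.

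Cdh2 polysome counts were 85, 85, 73 and 42 in control and 104, 187, 130 and 49 after RAM siRNA. Replicate 4 was the lowest of its group under both siRNAs and replicate 2 of RAM siRNA the highest, so the groups overlapped, and each pair had the higher level after RAM siRNA, as for 14.9% of all genes. The log2 fold change was 0.80 (SE 0.37, adjusted p = 0.563, edgeR) without the block and 0.76 (SE 0.17, adjusted p = 0.00780, edgeR) with it. The block fits without 1 library gave 0.52 to 0.85, each past the threshold, and the 0.52 came without replicate 2 of control. Without the block, leaving out replicate 2 of RAM siRNA gave 0.49 (adjusted p = 0.500, edgeR).

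Nes polysome counts were low and uneven, 93, 125, 33 and 33 in control and 75, 221, 53 and 51 after RAM siRNA. Replicates 1 and 2 together averaged 3.12 times replicates 3 and 4 in control and 3.03 times after RAM siRNA, against 1.33 and 1.31 times in input. The change of 0.61 (SE 0.57, adjusted p = 0.909, edgeR) did not pass, nor did the 0.55 (SE 0.19, adjusted p = 0.0559, edgeR) of the block. It rested on replicate 2 of RAM siRNA, without which it was -0.12 (adjusted p = 0.907, edgeR), or 0.32 with the block (adjusted p = 0.219, edgeR). With the block Nes passed when replicate 1 of control (0.78, adjusted p = 0.00723, edgeR) or of RAM siRNA (0.79, adjusted p = 0.0201, edgeR) was left out.

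Ncam1 polysome counts were 667, 949, 518 and 406 in control and 501, 1211, 451 and 241 after RAM siRNA, and its direction was not settled. Replicate 2 was the highest of its group under both siRNAs, and pair 2 was the only pair in which RAM siRNA was higher. The log2 fold change was 0.02 (SE 0.44, adjusted p = 1.00, edgeR) without the block and -0.15 (SE 0.15, adjusted p = 0.567, edgeR) with it. In the block fit it became -0.39 without replicate 2 of control (adjusted p = 0.000159, edgeR) and -0.36 without replicate 2 of RAM siRNA (adjusted p = 0.00529, edgeR), both past the threshold.

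The remaining 3 members did not pass on polysomes in either fit. Msi1 had 22, 48, 65 and 54 counts in control and 32, 40, 91 and 59 after RAM siRNA, a log2 fold change of 0.29 (95% interval -0.61 to 1.19). Zeb2 had 42, 57, 38 and 21 counts in control and 54, 56, 42 and 43 after RAM siRNA, a change of 0.40 (-0.23 to 1.04). Tubb3 had 1248, 1206, 888 and 1397 counts in control and 1024, 1298, 881 and 1283 after RAM siRNA, a change of 0.02 (-0.43 to 0.47), and the block interval of -0.22 to 0.24 was the narrowest of the 8 members. For all 3 genes the groups overlapped.

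In control cells the members differed in the ratio of their polysome CPM to their input CPM. CPM values are shares of a library, so this ratio ranks transcripts relative to each other. It does not give the portion of any transcript that is engaged by ribosomes. By the paper's methods, input RNA was extracted with Trizol, and polysome RNA with phenol and chloroform followed by LiCl. Effects of extraction on the ratio therefore cannot be told apart from those of the fraction. Nestin transcripts had a lower ratio than almost any other tested transcript. Msi1, Zeb2 and Ncam1 had a lower share on polysomes than in input, and Tubb3 had a higher share. Of the 8 members 1 was called higher and 4 lower, with and without the block, where 33.1% of all genes were called higher and 34.3% lower without it and 35.1% and 37.2% with it. Sox1, Pax6 and Cdh2 were not called in either of these fits.

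The polysome to input ratio of Nes in control extracts 1 to 4 was 0.169, 0.199, 0.0762 and 0.0807, a mean of 0.131 ± 0.0619 (SD, n = 4), and its ratio of means stood at percentile 1.22 of all genes tested. No polysome library approached the lowest input library. The log2 difference was -2.88 (SE 0.35, adjusted p = 2.46e-05, edgeR), 7.35-fold lower on polysomes, and leaving out any 1 library gave -3.25 to -2.63. After RAM siRNA the ratio was 0.108, 0.297, 0.0807 and 0.0951, so replicates 1 and 2 stood above the others in both sets of extracts.

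Msi1 (ratio 0.372 ± 0.119, SD, n = 4), Zeb2 (0.472 ± 0.256) and Ncam1 (0.607 ± 0.237) were lower on polysomes in each of the 4 control extracts, as were 36.8% of all genes. Their log2 differences were -1.44 (SE 0.30, adjusted p = 0.00136, edgeR), -1.21 (SE 0.25, adjusted p = 0.00120, edgeR) and -0.79 (SE 0.21, adjusted p = 0.00677, edgeR). The 2 fractions did not overlap for Msi1 and Zeb2 and overlapped for Ncam1. Over all genes, 30.4% were lower and 30.7% higher on polysomes without overlap. Tubb3 had ratios of 2.20, 1.99, 2.03 and 1.81, a log2 difference of 0.96 (SE 0.19, adjusted p = 0.000804, edgeR), and stood at percentile 87.8.

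Sox1, Pax6 and Cdh2 had mean ratios of 1.30, 1.14 and 1.42. Sox1 and Pax6 were above 1 in all 4 control extracts, as were 38.3% of all genes, with log2 differences of 0.31 (adjusted p = 0.139, edgeR) and 0.15 (adjusted p = 0.324, edgeR), and Cdh2 was above 1 in 3 of 4, with 0.45 (adjusted p = 0.0789, edgeR). Leaving out replicate 3 of control input brought Sox1 past the threshold (0.48, adjusted p = 0.0237, edgeR), and leaving out replicate 4 of control polysomes did so for Cdh2 (0.62, adjusted p = 0.00478, edgeR).

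**Figure D4:**
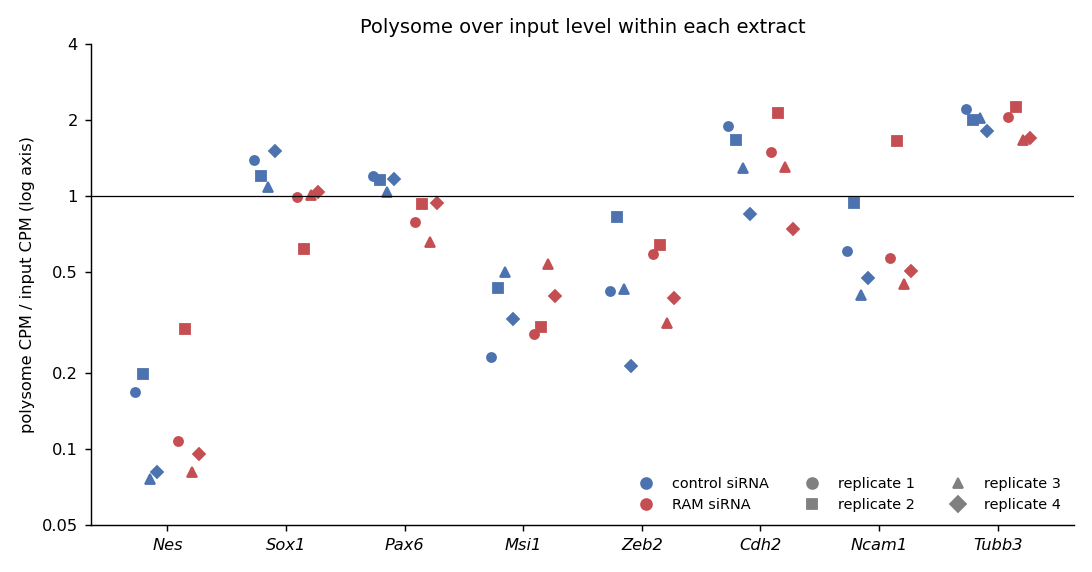
Polysome CPM divided by input CPM of the same extract (log axis) for the 8 genes that could be tested, in control (blue) and RAM siRNA (red) cells, with 1 symbol per replicate. Nes lies between 0.0762 and 0.297 in all 8 extracts, Tubb3 between 1.67 and 2.26, and Sox1 and Pax6 are above 1 in all 4 control extracts.

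The change of polysome loading by RAM siRNA, the polysome change less the input change, passed for 0 of the 8 members, as for 0 of all 12805 genes without the block (edgeR), where 100 genes, 0.781%, had an unadjusted p under 0.05, and for 2 genes with the block, 0.0156%. DESeq2 called 1 gene, no member. The members with the lowest values were Sox1 and Pax6. The Sox1 ratio of 1.39, 1.20, 1.08 and 1.51 in control was 0.989, 0.615, 1.01 and 1.04 after RAM siRNA, without overlap, a loading change of -0.50 (SE 0.25, adjusted p = 1.00, edgeR, and 0.840 with the block). For Pax6 the ratio was 1.04 to 1.20 in control and 0.656 to 0.943 after RAM siRNA, a change of -0.48 (SE 0.23, adjusted p = 1.00, edgeR, and 0.955 with the block). Over all genes, 1.6% had lower ratios after RAM siRNA in every extract without overlap. The other 6 members lay between -0.06 for Tubb3 and 0.40 for Ncam1, and the 95% intervals of all 8 held 0 without the block. With it those of Sox1 (-0.88 to -0.15) and Pax6 (-0.84 to -0.11) did not. These intervals are not adjusted for the number of genes tested. The share of all genes with such block intervals is not given here, so whether 2 of 8 is unusual cannot be told.

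Wider lists of the same pathways showed mixed directions in input. Over all genes tested, 6.95% rose and 5.94% fell in input without the block, and 20.3% and 19% with it. Each list count in input given below is to be read beside these shares, and a count near them is no result about a list. Of 33 other neural progenitor genes, 16 passed the filter, Pax3 and Fabp7 were listed at 0 in all libraries, and 0 rose and 3 fell without the block (2 rose and 7 fell with it), with a median of -0.23 against 0.00 for all genes. Hesx1, a repressor of the anterior neural plate, fell from 1.58 ± 0.133 to 0.511 ± 0.174 CPM (SD, n = 4), a log2 fold change of -1.62 (SE 0.26, adjusted p = 0.00197, edgeR). Sox21, a Sox factor of progenitors, fell from 10.2 ± 3.61 to 4.85 ± 1.19 CPM, -1.08 (SE 0.26, adjusted p = 0.0188, edgeR). Vim, the filament vimentin and the other gene called without the block, fell from 229 to 157 CPM, -0.55 (SE 0.10, adjusted p = 0.00505, edgeR), and was chosen once its values had been seen. With the block Zfp521 fell by 1.04 on the log2 scale (adjusted p = 0.000972, edgeR), while Zic2 (0.37, adjusted p = 0.00297, edgeR) and Sox11 (0.21, adjusted p = 0.0182, edgeR) rose.

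Of 30 other genes of the Notch pathway, 24 were tested, and 6 rose and 0 fell, or 10 and 2 with the block, with a median of 0.12. The receptor Notch3 rose from 29.5 ± 6.93 to 47.2 ± 4.12 CPM (SD, n = 4), a log2 fold change of 0.68 (SE 0.14, adjusted p = 0.00780, edgeR). The ligands Dll3 (0.68, adjusted p = 0.0253, edgeR) and Dll1 (0.45, adjusted p = 0.0198, edgeR) rose with the block only, and Notch4 (-0.24, adjusted p = 0.00796, edgeR) and the coactivator Maml1 (-0.20, adjusted p = 0.0386, edgeR) fell with it. Hes5 held at most 2 counts in any of the same libraries.

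Of 33 neuronal genes other than Tubb3 and Ncam1, 15 were tested, and 5 rose and 2 fell without the block, 7 and 2 with it, with a median of 0.31. The filament subunits Ina (8.98 ± 2.39 to 16.7 ± 4.04 CPM, SD, n = 4; log2 fold change 0.89, SE 0.19, adjusted p = 0.00974, edgeR) and Nefh (0.65, SE 0.13, adjusted p = 0.00731, edgeR) rose, as did Chga, a protein of secretory granules (0.43, SE 0.11, adjusted p = 0.0265, edgeR). The proneural factor Neurod1 fell from 1.87 ± 0.257 to 0.981 ± 0.185 CPM (-0.93, SE 0.21, adjusted p = 0.0128, edgeR), and Stmn2, a regulator of microtubules in growing axons, fell as well (-0.36, SE 0.09, adjusted p = 0.0169, edgeR). Of the 15 genes of the REST complex and the Ptb splicing repressors, all tested, 1 fell and 0 rose, and 5 fell with the block. The one called in both was Rest itself, from 377 ± 17.0 to 301 ± 21.9 CPM (-0.33, SE 0.08, adjusted p = 0.0146, edgeR).

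**Figure D5:**
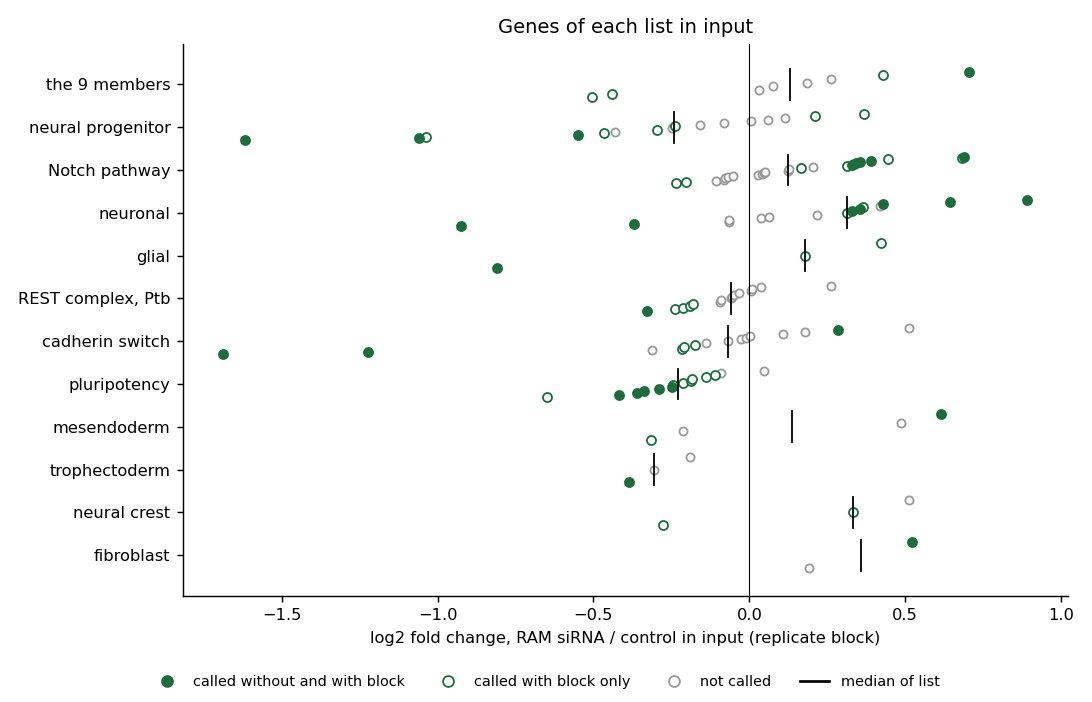
Log2 fold change in input (fit with the replicate block) of each tested gene of the lists, 1 row per list, with a black line at the list's median. Filled green points passed without and with the block, open green points with it only; the pluripotency list has 5 filled points, all below 0, and the 4 called members lie on both sides of 0.

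Around Cdh2 and Zeb2, 15 of 16 genes of the cadherin switch were tested, and 1 rose and 2 fell, or 1 and 5 with the block, with a median of -0.07. Epithelial genes led the falls, the splicing factor Esrp1 (6.28 ± 0.888 to 1.95 ± 0.469 CPM, SD, n = 4; log2 fold change -1.68, SE 0.18, adjusted p = 0.000213, edgeR) and the claudin Cldn7 (-1.23, SE 0.16, adjusted p = 0.000619, edgeR), while the tight junction gene Ocln rose (0.28, SE 0.07, adjusted p = 0.0230, edgeR). With the block the adhesion molecule Epcam also fell (-0.22, adjusted p = 0.000375, edgeR).

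Markers of other states moved with the siRNA too, and their part in the members' changes was not tested. All 14 pluripotency genes were tested, and 0 rose and 5 fell (0 and 12 with the block), with a median of -0.22 and a summed level of 4498 to 5176 CPM in RAM siRNA input, below the control libraries. Of 13 glial markers 3 were tested, and Aldh1l1 fell (-0.81, SE 0.14, adjusted p = 0.00353, edgeR), while Pdgfra and Slc1a3 rose with the block. The glial list summed to 51.6 to 59.0 CPM in control and 58.3 to 70.3 CPM in RAM siRNA input. Few markers of mesendoderm (4 of 12), trophectoderm (3 of 8), neural crest (3 of 8) and fibroblasts (2 of 9) passed the filter. Without the block 1 mesendoderm gene, Gata6, and 1 fibroblast gene, Pdgfrb, rose, 1 trophectoderm gene, Tfap2c, fell, and no neural crest gene passed. With the block Eomes of mesendoderm also fell, and of neural crest Ngfr rose and Foxd3 fell. The summed levels of the 4 lists in control input were 22.1 to 23.5, 37.9 to 40.6, 90.0 to 110.8 and 12.2 to 14.5 CPM, and after RAM siRNA 20.5 to 23.9, 25.6 to 34.4, 75.9 to 111.7 and 15.7 to 19.6 CPM.

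On polysomes the only call in these lists without the block was 1 lower gene of the cadherin switch, where 0.0234% of all genes passed. With the block 9.68% of all genes tested rose and 4.97% fell. In that fit, of 16 neural progenitor genes tested 0 rose and 4 fell, and of 24 Notch genes 5 rose and 1 fell. Of 15 neuronal genes 7 rose and 1 fell, and of 3 glial genes 2 rose and 1 fell. In the REST list 1 of 15 fell, in the cadherin list 2 of 15 and in the trophectoderm list 1 of 3. In the neural crest list 1 of 3 rose, and in the fibroblast list 1 of 2. Of the 14 pluripotency and 4 mesendoderm genes tested 0 passed. For polysome loading 0 genes of any list passed in either fit.

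Likeness between genes was measured as the root-mean-square difference over the 16 libraries of log2 CPM centred on each gene's mean, among the 10564 genes whose mean reached 5 CPM. The closest genes were Son (0.24) for Nes, Enkd1 (0.17) for Sox1, Hnrnpul1 (0.21) for Pax6 and Arf3 (0.28) for Msi1. For Zeb2 it was Sox4 (0.25), for Cdh2 Prss35 (0.19), for Ncam1 Atp7a (0.12) and for Tubb3 Bop1 (0.14). The second closest were Herc1, Dvl3, Jak3, Metrn, Lcorl, Msln, Cpd and Grwd1 in the same order.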

How the data were processed

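RNA was sequenced from input and polysome fractions of 46C cells transfected with control or RAM siRNA, 4 biological replicates per group. The authors made rRNA-depleted stranded libraries, aligned reads with STAR 2.5.1b to mm10 and counted them per gene with HTSeq. The strand setting and annotation release were not given in the sources used here. The deposited values are raw counts, not normalized, for 46983 genes, of which 46488 matched a symbol.

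The 12805 genes that reached 1 CPM in 10 or more of the 16 libraries were tested with edgeR 4.0.16 (R 4.3.3, limma 3.58.1), using TMM scaling, the quasi-likelihood test and Benjamini-Hochberg adjustment over all genes at a threshold of 0.05, checked on simulated data. Genes below the filter were tested by exact permutation. Intervals are 95% and floors are 3 counts. Depth was 16647523 to 20147833 counts per library.

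Comparisons were RAM siRNA against control in input and in polysomes, the difference between these changes (loading), and polysomes against input in control cells. Groups came from the labels, with no block in the main design. Same-numbered libraries deviated together: every pair correlated above 0.1, with means of 0.499 in input, 0.777 in polysomes and 0.368 and 0.406 between the fractions of control and RAM siRNA extracts, against -0.163, -0.255, -0.122 and -0.132 for other numbers. The block is therefore given where it changed a call. For loading the block was set within each fraction, so it did not tie a polysome library to the input of its own extract. Alternatives were RLE and library-size scaling, DESeq2 1.42.0, other filters, leaving out each library, pairs of replicates alone and the replicate block. DESeq2 with the block, and the block without each library, were added after seeing the data. The members and lists were chosen with earlier results of these data known. Named genes were the members, Ramac, overlapping genes, for each list up to 3 genes with the largest change in each direction past the threshold in input (Vim, outside this rule, was added after its values were seen), and the 2 genes most like each member. P-values measure the spread between these libraries.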

Additional observations from a re-analysis of the deposited data

How the results depend on the processing

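Among the members the replicate block changed the calls of Nes, Pax6 and Ncam1 in input and of Pax6 and Cdh2 on polysomes and no other, and it brought Ramac on polysomes past the threshold (-2.52 without and -2.59 with it). For input the number of genes called, 1651, became 5028 with the replicate block, 3149 with DESeq2 and the block, 2629 with replicates 1 and 2 only and 0 with replicates 3 and 4 only. Without single libraries it was 906 to 2506, or 3576 to 4969 with the block. The number of members called in input, 1, was 4 with the block, with DESeq2 and the block and with no filter, 3 with DESeq2 and with replicates 1 and 2 only, 2 with RLE scaling, library-size scaling and the filter on 4 libraries, and 0 with replicates 3 and 4 only. It was 1 to 2 without single libraries and 4 to 5 with the block.

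For polysomes the 3 genes called became 1875 with the block, 1588 with DESeq2 and the block, 300 with DESeq2, 32 with no filter, 18 with the filter on 4 libraries and 0 with replicates 1 and 2 or 3 and 4 only. Without single libraries the range was 0 to 48, or 795 to 4880 with the block. The 0 members called became 2 with the block, alone or in DESeq2, and 1 with DESeq2, and 2 to 4 in block fits without single libraries. For loading 2 genes were called with the block, 2 with DESeq2 and the block and 1 with DESeq2, with 0 to 173 in block fits without 1 replicate number, the 173 without replicate 2. Between fractions the 8628 genes were 7877 to 8905 without single libraries, or 8177 to 9206 with the block, and the 5 members were 5 to 6. With no filter 11944 genes and 7 members were called, 3 of these higher. The filter on 4 libraries gave 9789 genes and 6 members, and replicates 1 and 2 only gave 8863 and 6.

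Directions turned for values that did not pass, except Ncam1 on polysomes, which passed in the block fits without replicate 2 of control (-0.39) or of RAM siRNA (-0.36). Ncam1 on polysomes was -0.15 with the block, -0.17 with DESeq2 and the block, -0.074 with library-size scaling, -0.024 with no filter, -0.0051 with the filter on 4 libraries and -0.44 with replicates 3 and 4 only. Tubb3 on polysomes was -0.041 with library-size scaling, -0.028 with no filter, -0.0050 with the filter on 4 libraries, -0.062 with replicates 3 and 4 only and -0.0051 with DESeq2 and the block. With replicates 3 and 4 only, Sox1 in input was -0.13, Cdh2 loading -0.027 and Ramac between fractions 0.057. With replicates 1 and 2 only, Msi1 loading was -0.15 and Tubb3 loading 0.10, and Tubb3 loading was 0.012 with no filter. Without single libraries, in fits with and without the block, input values ran from -0.048 to 0.25 for Sox1 and -0.14 to 0.20 for Tubb3. Polysome values ran from -0.12 to 1.00 for Nes, -0.013 to 0.52 for Msi1, -0.57 to 0.26 for Ncam1 and -0.092 to 0.14 for Tubb3. Loading values ran from -0.26 to 0.41 for Nes, -0.0069 to 0.22 for Msi1, -0.046 to 0.28 for Zeb2, -0.15 to 0.19 for Cdh2 and -0.16 to 0.014 for Tubb3. The cause was not tested. Low polysome counts of Nes (33 to 221), Msi1 (22 to 91) and Zeb2 (21 to 57) limit their precision, and Hes5 could not be compared.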
